A study of Mus musculus with 2 samples.

Results

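The genes described here are those of the 4 mouse Hox clusters, Hoxa, Hoxb, Hoxc and Hoxd, read in embryonic stem (ES) cell clones that differ in Cdx2, a regulator of Hox genes. A probe was taken if its gene name on the array was a Hox cluster letter followed by a paralogue number from 1 to 13. All such probes were taken, whatever their signal. They read 39 genes of 31829 gene names on the array, with 44 of 39429 probes, in 62 of 43020 spots. The Hoxa cluster had 14 probes for 11 genes, Hoxb 11 probes for 10 genes, Hoxc 9 probes for 9 genes and Hoxd 10 probes for 9 genes.

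All 3 clones came from ZHBTc4 ES cells, in which the endogenous Oct4 alleles are disrupted and a transgene repressed by doxycycline supplies Oct4. Each was a monoclonal line stably transfected with 1 plasmid, pCAG-IP/Nr5a2-EGFP, pCAG-IP/Oct4-EGFP or pCAG-IP/EGFP, and all were given doxycycline before harvest. They grew without feeder cells in 15% serum with 1000 IU/ml of leukaemia inhibitory factor, and 10 µg of total RNA was labelled for each channel. On the EGFP array, Cy5 held the Nr5a2-EGFP clone and Cy3 the EGFP clone, and on the Oct4 array, Cy5 held the Nr5a2-EGFP clone again and Cy3 the Oct4-EGFP clone. There was 1 array for each pair, with no replicate and no dye swap, so no test or p-value was possible, and each transgene was carried by 1 clone, so the transgene and the clone cannot be told apart. Probes for Nr5a2 and Pou5f1, the gene of Oct4, do not check the labels, because the files do not say which part of the transcript each transgene carries. The brighter Nr5a2 probe read 1335 in the Nr5a2-EGFP clone and 2518 in the EGFP clone, and 1388 in the Nr5a2-EGFP clone and 3056 in the Oct4-EGFP clone, so it was lower in the clone labelled for Nr5a2, with log2 ratios of -0.92 and -1.14. The dimmer Nr5a2 probe also read lower there, at -0.39 and -0.63. On the EGFP array, Pou5f1 read 179.4 in the Nr5a2-EGFP clone and 195.5 in the EGFP clone. On the Oct4 array, it read 103.0 in the Nr5a2-EGFP clone, not well above background, and 192.8 in the Oct4-EGFP clone. It was thus at least 1.87-fold lower in the Nr5a2-EGFP clone there. The difference of the array ratios gave a log2 ratio of 0.78 for Oct4-EGFP over EGFP, while the Nr5a2-EGFP readings themselves differed by 0.80.

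Hox genes encode homeodomain transcription factors that set positional identity along the body axis. Their order within each cluster follows the order in which they are switched on, with low paralogue numbers anterior and early and high numbers posterior and late. In ES cells the clusters are held largely silent by Polycomb proteins. Cdx1, Cdx2 and Cdx4 encode caudal-type homeodomain factors that bind the clusters and activate central and posterior Hox genes in the trunk and tail of the embryo. In the blastocyst, Cdx2 has another role, in trophectoderm, where ES cells are driven when Oct4 is lost.

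Of the Hox probes, each about 60 bases long, 4 reach into the part of the homeobox that encodes the third helix of the homeodomain. 3 of these are shown because the homeobox is the stretch that Hox genes share, and capitals mark the bases that encode residues of that helix, which contacts DNA. Coordinates are on mm9, as given in the file headers.
Hoxc11 (chr15:102787022-102787081, plus strand): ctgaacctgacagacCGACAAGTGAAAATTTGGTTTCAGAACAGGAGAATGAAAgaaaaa
Hoxc12 (chr15:102768889-102768948, plus strand): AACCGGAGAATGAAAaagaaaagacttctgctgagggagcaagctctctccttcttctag
Hoxd10 (chr2:74532280-74532339, plus strand): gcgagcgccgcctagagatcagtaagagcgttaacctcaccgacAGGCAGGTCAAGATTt
Among all 946 pairs of Hox probes, aligned without gaps over at least 30 bases, the median of the best identity was 42.1%. The highest values were 71.0% between Hoxc11 and Hoxd10, over 22 of 31 bases, and 66.7% between Hoxb3 and Hoxc11, over 26 of 39 bases. Hybridisation of other Hox transcripts to these probes was not tested.

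Cdx2 set the clones apart, with a high level in the Nr5a2-EGFP and EGFP clones and a low one in the Oct4-EGFP clone. Its normalized intensity was 14747 in the Nr5a2-EGFP clone and 18695 in the EGFP clone on the EGFP array, and 15853 in the Nr5a2-EGFP clone and 709 in the Oct4-EGFP clone on the Oct4 array. The log2 ratio was -0.34 for Nr5a2-EGFP over EGFP and 4.48 for Nr5a2-EGFP over Oct4-EGFP. Cdx1 had another order, at 455 in the Nr5a2-EGFP clone and 194 in the EGFP clone, and 504 in the Nr5a2-EGFP clone and 1145 in the Oct4-EGFP clone. Cdx1 thus read highest in the clone where Cdx2 read lowest. It had a log2 ratio of 1.23 against EGFP and of -1.185 against Oct4-EGFP. The probe for Cdx4 was not well above background in any clone.

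Beside the Cdx genes, the listed ParaHox relatives of the Hox genes were Gsx1, Gsx2 and Pdx1, and none of these was at least 2-fold apart in a comparison. Gsx1 had a log2 ratio of 0.96 over EGFP and 0.37 over Oct4-EGFP, and Pdx1, a pancreatic regulator, had -0.05 and -0.24. Gsx2 had -0.08 and 0.39, and its other probe gave -0.03 and 0.31.

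Most Hox probes gave a signal in every clone, and those read in none were mainly anterior. A probe was counted as read if more than 0.5 of its spots carried the software's flag for a signal well above background. On the EGFP array, 28 of 44 Hox probes (63.6%) were read in the Nr5a2-EGFP clone and 31 (70.5%) in the EGFP clone. On the Oct4 array, 30 (68.2%) were read in the Nr5a2-EGFP clone and 32 (72.7%) in the Oct4-EGFP clone. In each reading the share for Hox was below that of all probes, which lay between 77.4% and 79.4%.

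Of the 44 probes, 26 (59.1%) were read in all 4 channels, against 73.5% of all probes, and 8 (18.2%) in none, against 16.3% of all probes. The remaining 10 were read in some channels. By gene, 33 of 39 were read in at least 1 clone. The 6 genes read in none were Hoxa5, Hoxa11, Hoxb1, Hoxb2, Hoxd1 and Hoxd3. Hoxa11 and Hoxb1 were each printed 10 times and 9 of their spots were used on each array. Hoxb1, a marker of the early hindbrain, read between 61.6 and 63.1 in the 4 channels.

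**Figure D1:**
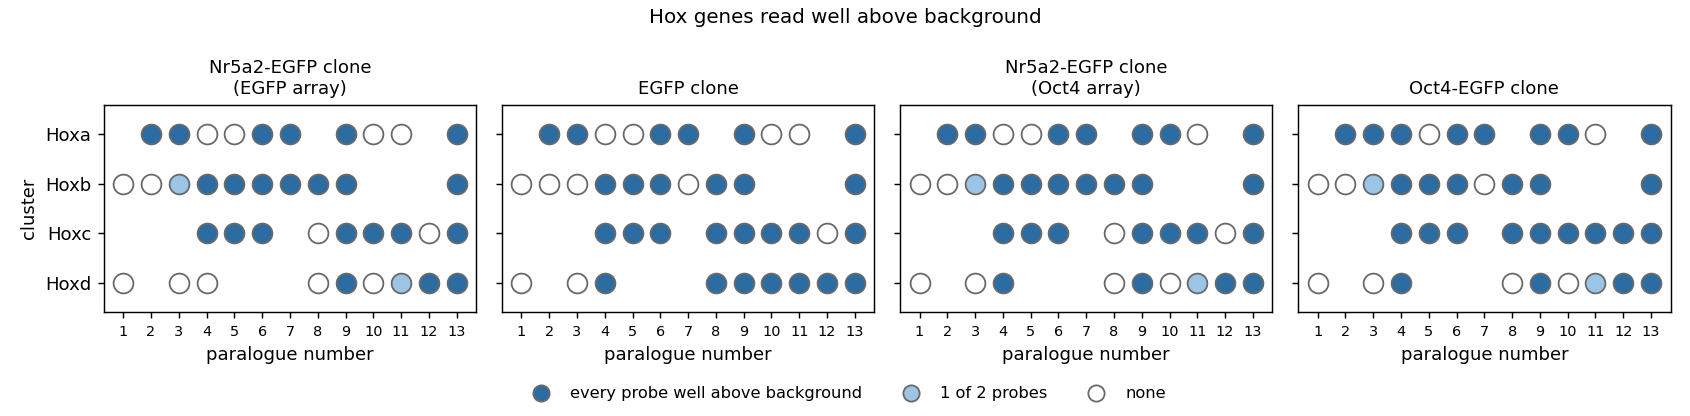
Hox genes reported here that were read well above background, in 4 channels: the Nr5a2-EGFP and EGFP clones on the EGFP array, and the Nr5a2-EGFP and Oct4-EGFP clones on the Oct4 array. The horizontal axis is the paralogue number and the vertical axis the cluster; dark circles mark genes with every probe read, light circles 1 of 2 probes and open circles none. Every Hoxc gene was read in the Oct4-EGFP clone, and Hoxd genes were read most often in the EGFP clone.

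Anterior genes, with paralogue numbers 1 to 4, were read least often. Of their 14 probes, 6 were read in the Nr5a2-EGFP clone and 6 in the EGFP clone on the EGFP array, and 7 in the Nr5a2-EGFP clone and 8 in the Oct4-EGFP clone on the Oct4 array, while 6 were read nowhere. Of the 11 probes for central genes, numbers 5 to 8, 8 were read in the Nr5a2-EGFP clone and 9 in the EGFP clone, and 8 in each clone of the Oct4 array. Of the 19 probes for posterior genes, from number 9 on, 14 were read in the Nr5a2-EGFP clone and 16 in the EGFP clone, and 15 in the Nr5a2-EGFP clone and 16 in the Oct4-EGFP clone. Only 1 central and 1 posterior probe were read in no channel.

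By cluster, all 9 Hoxc probes were read in the Oct4-EGFP clone, and each was read somewhere. Of the 10 Hoxd probes, 4 were read in the Nr5a2-EGFP clone and 8 in the EGFP clone on the EGFP array, and 5 in each clone of the Oct4 array. The Hoxd probes read in the EGFP clone but not beside it in the Nr5a2-EGFP clone were those of Hoxd4, Hoxd8, Hoxd10 and 1 of 2 for Hoxd11. The RNA came from whole cultures, so fewer cells that express a gene and less RNA per cell cannot be told apart.

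The Nr5a2-EGFP clone was read in Cy5 on both arrays, which gives the only repeated measurement. Of 30 Hox probes read in at least 1 of these readings, 1 (3.3%) was at least 2-fold apart, against 1.80% of all probes. That probe was the dimmer of 2 for Hoxa13, at 545 on the EGFP array and 268 on the Oct4 array. The SD of the log2 difference was 0.258 over the Hox probes and 0.304 over all probes. This spread covers technical error and does not cover variation between clones. The labels do not say whether both readings came from 1 RNA extract. Whether the spread covers variation between extracts or cultures is thus not known.

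In the first comparison, Nr5a2-EGFP over EGFP, both clones were high in Cdx2, and more Hox probes read lower than higher in the Nr5a2-EGFP clone. A probe entered if it was read in at least 1 of the channels, and it was called if its log2 ratio was 1 or more, or -1 or less. Of 33 Hox probes, 6 (18.2%) were called, against 8.56% of all 31869 probes. The 6 were 1 higher, against 3.35% of all probes, and 5 lower, against 5.21% of all probes. The median log2 ratio was -0.07 over the Hox probes and 0.01 over all probes. With medians in place of loess for the scaling, the median of all probes stood at 0.14, that of Hox at 0.03, and the higher share of all calls at 61.9% in place of 39.1%.

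Hoxa2, which patterns the second branchial arch and hindbrain, was the only Hox probe called higher in this comparison. Its level was 903 in the Nr5a2-EGFP clone and 361 in the EGFP clone, a log2 ratio of 1.32. The same probe gave 923 in the Nr5a2-EGFP clone and 444 in the Oct4-EGFP clone, a log2 ratio of 1.05. The readings of the Nr5a2-EGFP clone lay close together and above both other clones, with -0.03 between them on the log2 scale.

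The lower probes came from the Hoxa, Hoxb and Hoxd clusters. Hoxa7, a central gene of the trunk, read 202 in the Nr5a2-EGFP clone and 547 in the EGFP clone, a log2 ratio of -1.44. Against the Oct4-EGFP clone, Hoxa7 read 248 in the Nr5a2-EGFP clone and 658 in the Oct4-EGFP clone, a log2 ratio of -1.41. Hoxa7 was thus low in the Nr5a2-EGFP clone alone.

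Hoxb13, the most posterior gene of its cluster, showed the same order as Hoxa7. It read 738 in the Nr5a2-EGFP clone and 1752 in the EGFP clone, and 728 in the Nr5a2-EGFP clone and 1558 in the Oct4-EGFP clone. The log2 ratios were -1.25 and -1.10. Of the 30 Hox probes with a value in both direct comparisons, Hoxa2 was called higher in both, Hoxa7 and Hoxb13 lower in both, 4 were called in one and 23 in neither. The Nr5a2-EGFP clone was in Cy5 each time, so for Hoxa2, Hoxa7 and Hoxb13 the clone and a dye effect of the probe cannot be told apart, and because both comparisons share that clone they are not independent.

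In the Hoxd cluster, 2 probes were called lower. Hoxd9, a limb and trunk gene, read 401 in the Nr5a2-EGFP clone and 833 in the EGFP clone, a log2 ratio of -1.05. With median centring in place of loess its ratio was -0.86, short of 2-fold. On the Oct4 array it read 323.5 in the Nr5a2-EGFP clone and 420.2 in the Oct4-EGFP clone, a log2 ratio of -0.38. One of the probes for Hoxd11, a gene of limb and kidney, read 76.8 in the Nr5a2-EGFP clone, not well above background, and 237 in the EGFP clone. It was at least 2.27-fold lower in the Nr5a2-EGFP clone, where the dim level is taken as no less than the lowest level of any probe well above background on that channel.

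**Figure D2:**
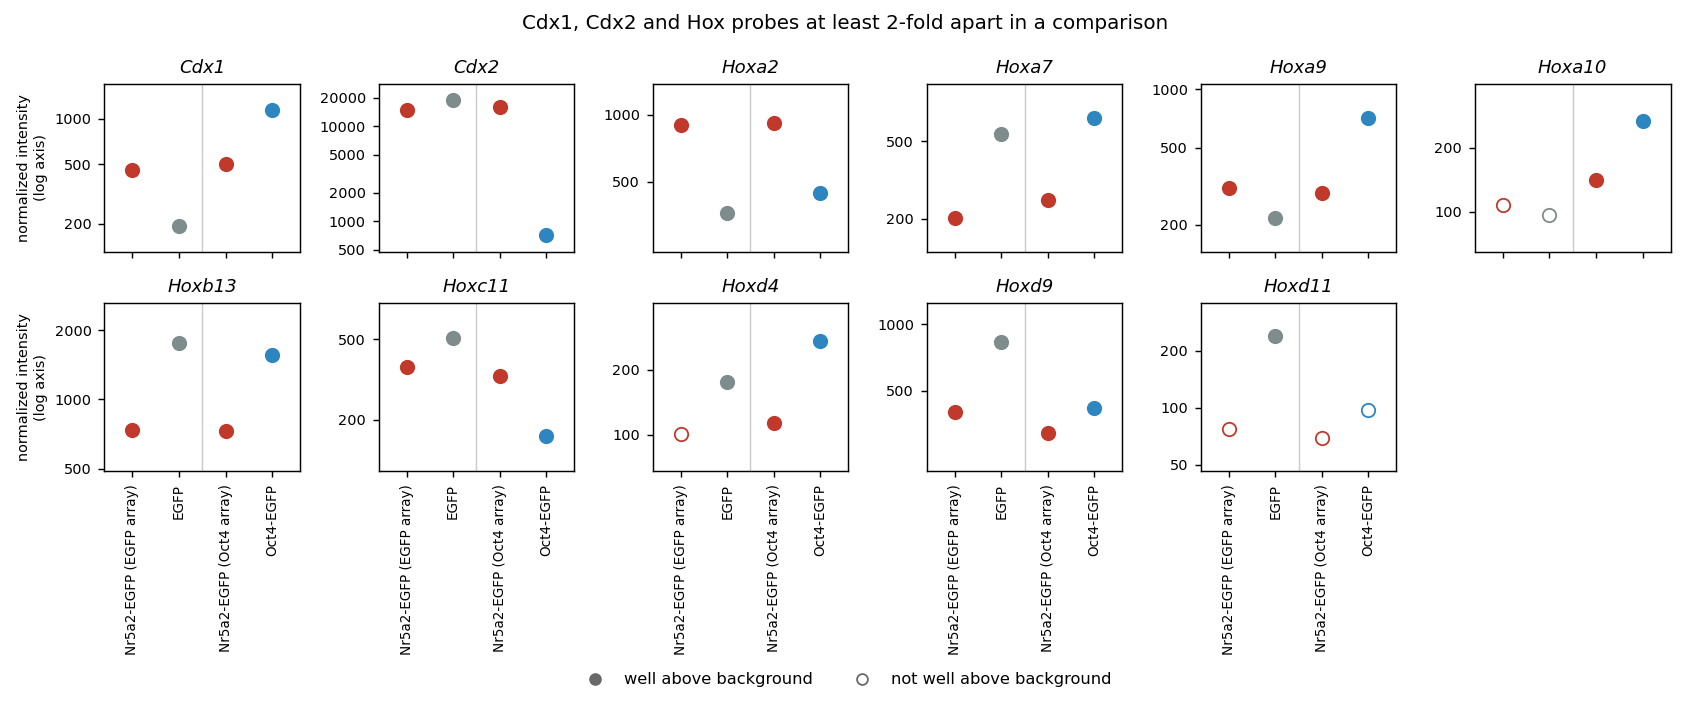
Normalized intensity, on a log axis of its own for each probe, of Cdx1, Cdx2 and 9 Hox probes called in a comparison, with 1 point per reading, in the same order in every panel, and open points for readings not well above background. The grey line parts the EGFP array, on the left, from the Oct4 array. Cdx2 stood low, at 709, in the Oct4-EGFP clone only, and Hoxa2 stood high and Hoxa7 and Hoxb13 low in both Nr5a2-EGFP readings. The Hoxa9 probe drawn, 1 of 2 for that gene, stood high in the Oct4-EGFP clone.

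The Hoxd probes from Hoxd4 to the 3' probe of Hoxd11 had lower levels in the Nr5a2-EGFP clone than in the EGFP clone. Of these only Hoxd9 was read in both clones. The others entered through the EGFP clone alone, so their direction was largely set by the rule for entry and is no evidence of a run. Hoxd4 read 101 in the Nr5a2-EGFP clone and 176 in the EGFP clone, so it was at least 1.68-fold lower. Hoxd8 read 81.7 in the Nr5a2-EGFP clone and 146 in the EGFP clone, at least 1.40-fold lower, and Hoxd10 read 82.4 in the Nr5a2-EGFP clone and 112 in the EGFP clone, at least 1.07-fold lower. The Nr5a2-EGFP readings of these 3 probes were not well above background. With the Nr5a2-EGFP reading of the other array, the log2 ratio of Hoxd10 was 0.10 in place of -0.44, so its direction turned. Hoxd9 and Hoxd11, given above, complete this stretch. The cluster's median log2 ratio was -0.62, but it includes the probes that entered through the EGFP clone alone. Hoxd12 and Hoxd13, at the posterior end, had log2 ratios of 0.23 and -0.12, and the other Hoxd11 probe 0.06. Like Hoxd9, these were read in both clones. By the software's own log2 ratio, which subtracts the background and adds no offset, Hoxd4 stood at -2.08, Hoxd8 at -3.17, Hoxd9 at -1.20, Hoxd10 at -2.03 and the same Hoxd11 probe at -4.52.

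The offset of 50 narrows ratios of dim probes, and the count on this array depended on it. By the software's ratio 11 Hox probes were called, 2 higher and 9 lower. Hoxb3 joined the higher ones at 1.13, and Hoxc8 joined the lower ones at -1.06 beside Hoxd4, Hoxd8 and Hoxd10. None of the 6 probes called above changed its direction.

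In the Hoxc cluster, 0 of 8 probes were called, where 8.56% of all probes were, and the log2 ratios lay between -0.55 and 0.14. Hoxc5 read 21657 in the Nr5a2-EGFP clone and 19600.5 in the EGFP clone, and Hoxc13 read 3179 in the Nr5a2-EGFP clone and 3175 in the EGFP clone. Hoxc8 read 96.2 in the Nr5a2-EGFP clone and 141 in the EGFP clone, at least 1.35-fold lower. Hoxc11 had -0.48, Hoxc10 -0.28, Hoxc6 -0.13, Hoxc4 -0.06 and Hoxc9 -0.03.

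In the Hoxb cluster, Hoxb13 was the only probe called of 8. Hoxb5 had a log2 ratio of 0.45, Hoxb6 0.27, Hoxb9 0.27, Hoxb8 -0.03 and Hoxb4 -0.25. Hoxb3 and Hoxb7 were read in the Nr5a2-EGFP clone but not in the EGFP clone. Their log2 ratios were 0.48 and 0.21, or 0.40 and 0.04 with median centring. For Hoxb7 this is less than the SD of 0.258 between the repeat readings. Among the remaining Hoxa probes, Hoxa3 had a log2 ratio of -0.80 and Hoxa6 0.49. The Hoxa9 probes gave 0.51 and 0.24, and the Hoxa13 probes 0.22 and -0.59.

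**Figure D3:**
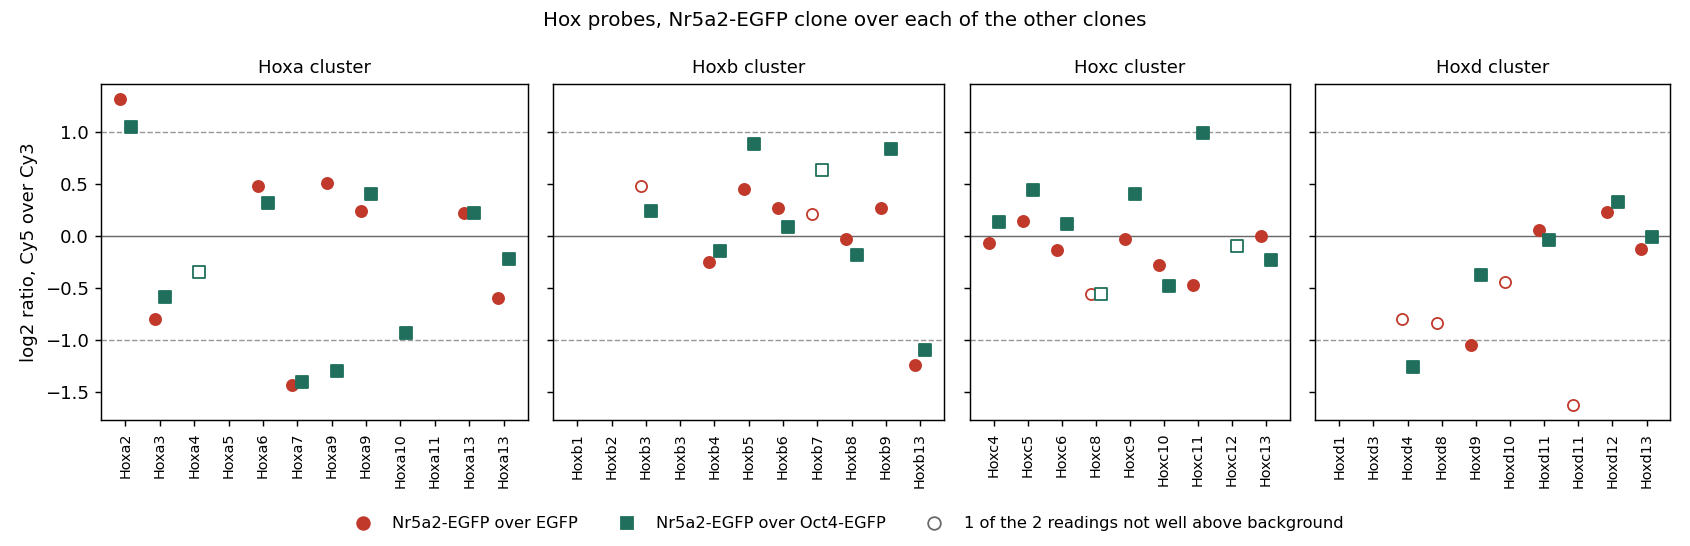
Log2 ratios of the Hox probes reported here and read in at least 1 channel, in paralogue order along each cluster, for Nr5a2-EGFP over EGFP (circles) and Nr5a2-EGFP over Oct4-EGFP (squares). Open symbols have 1 of the 2 readings not well above background and dashed lines mark 2-fold. Hoxa7 and Hoxb13 lie below -1 and Hoxa2 above 1 on both arrays, and no Hoxc probe passes either line.

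In the second comparison, Nr5a2-EGFP over Oct4-EGFP, the clones differed in Cdx2 by 22.4-fold, and the share of Hox probes at least 2-fold apart was near that of all probes. Of 33 Hox probes, 5 (15.2%) were called, against 11.9% of all 31951 probes. They were 1 higher, against 4.49% of all probes, and 4 lower, against 7.45% of all probes. The median log2 ratio was -0.04 over the Hox probes and -0.002 over all probes. By band, the median was -0.17 over 8 anterior probes, 0.12 over 9 central and -0.07 over 16 posterior ones, and 1 central and 2 posterior probes were called lower, beside 1 anterior probe each way.

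Hoxa2 was the higher probe, and Hoxa7, Hoxb13, Hoxa9 and Hoxd4 were the lower ones. Hoxa9, a posterior gene also known from leukaemia, read 290.1 in the Nr5a2-EGFP clone and 713 in the Oct4-EGFP clone, a log2 ratio of -1.30. Hoxd4, an anterior gene that responds to retinoic acid, read 114 in the Nr5a2-EGFP clone and 272 in the Oct4-EGFP clone, a log2 ratio of -1.26. For both, the Oct4-EGFP clone was the high one, and for Hoxd4 the EGFP clone also read above the Nr5a2-EGFP clone.

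Just short of 2-fold, Hoxc11 had a log2 ratio of 0.99, Hoxa10 -0.93, Hoxb5 0.88 and Hoxb9 0.84. Hoxc11, a posterior gene, read 329.6 in the Nr5a2-EGFP clone and 166 in the Oct4-EGFP clone. Hoxb9, a thoracic gene, read 1567 in the Nr5a2-EGFP clone and 876 in the Oct4-EGFP clone, and Hoxb5 read 380.4 in the Nr5a2-EGFP clone and 206.0 in the Oct4-EGFP clone. By the software's ratio, 9 Hox probes were called, 4 higher and 5 lower: Hoxb5 at 1.33, Hoxb7 at 2.52 and Hoxc11 at 1.54 were then above 2-fold, and Hoxa10 at -1.42 below. Hoxb7, read in the Nr5a2-EGFP clone alone, was higher there by at least 1.31-fold.

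Among the rest, Hoxb6, Hoxb8, Hoxc4, Hoxc6, Hoxd12 and Hoxd13 lay between -0.18 and 0.32, and Hoxc5, Hoxc9 and Hoxc10 at 0.44, 0.40 and -0.48. Hoxa6 had 0.32, Hoxb3 0.24, Hoxb4 -0.14 and Hoxc13 -0.24, and the Hoxa13 probes had 0.22 and -0.225. Hoxc8 was at least 1.47-fold lower in the Nr5a2-EGFP clone and Hoxa4 at least 1.27-fold lower. Hoxc12, read in the Oct4-EGFP clone alone, had -0.09, less than the SD of 0.258 between the repeat readings.

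The third comparison set the Oct4-EGFP clone over the EGFP clone without an array of its own, as the EGFP array's log2 ratio less that of the Oct4 array, so that any change in the Nr5a2-EGFP clone from one array to the other enters it. Cdx2 read 28.3-fold lower in the Oct4-EGFP clone, with a log2 ratio of -4.83. Of 35 Hox probes, 4 (11.4%) were called, against 12.6% of all 32352 probes. They were 2 higher, against 6.67% of all probes, and 2 lower, against 5.96% of all probes. The median log2 ratio was -0.11 over the Hox probes and 0.02 over all probes, with 28 of 35 within 0.5 of zero.

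Both higher probes were neighbours in the Hoxa cluster. Hoxa9 read 713 in the Oct4-EGFP clone and 216.5 in the EGFP clone, with a log2 ratio of 1.81, or 1.72 from the Cy3 levels alone. Hoxa10, a posterior gene of the uterus and limb, read 269 in the Oct4-EGFP clone and 96.4 in the EGFP clone, where it was not well above background. Its log2 ratio was 1.09, or 0.84 and so short of 2-fold with median centring, and from the Cy3 levels alone it was at least 2.78-fold higher. The lower probes were those of Hoxc11 and Hoxd11. The Oct4-EGFP clone, with little Cdx2, thus read high for Hoxa10 and 1 of 2 Hoxa9 probes. It read low for Hoxc11 and 1 of 2 Hoxd11 probes. The other Hoxa9 and Hoxd11 probes had -0.17 and 0.10. Hoxc11 read 166 in the Oct4-EGFP clone and 505 in the EGFP clone, with a log2 ratio of -1.47. The Hoxd11 probe read 96.8 in the Oct4-EGFP clone, not well above background, and 237 in the EGFP clone. Its log2 ratio was -1.14, and from the Cy3 levels alone it was at least 2.36-fold lower.

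**Figure D4:**
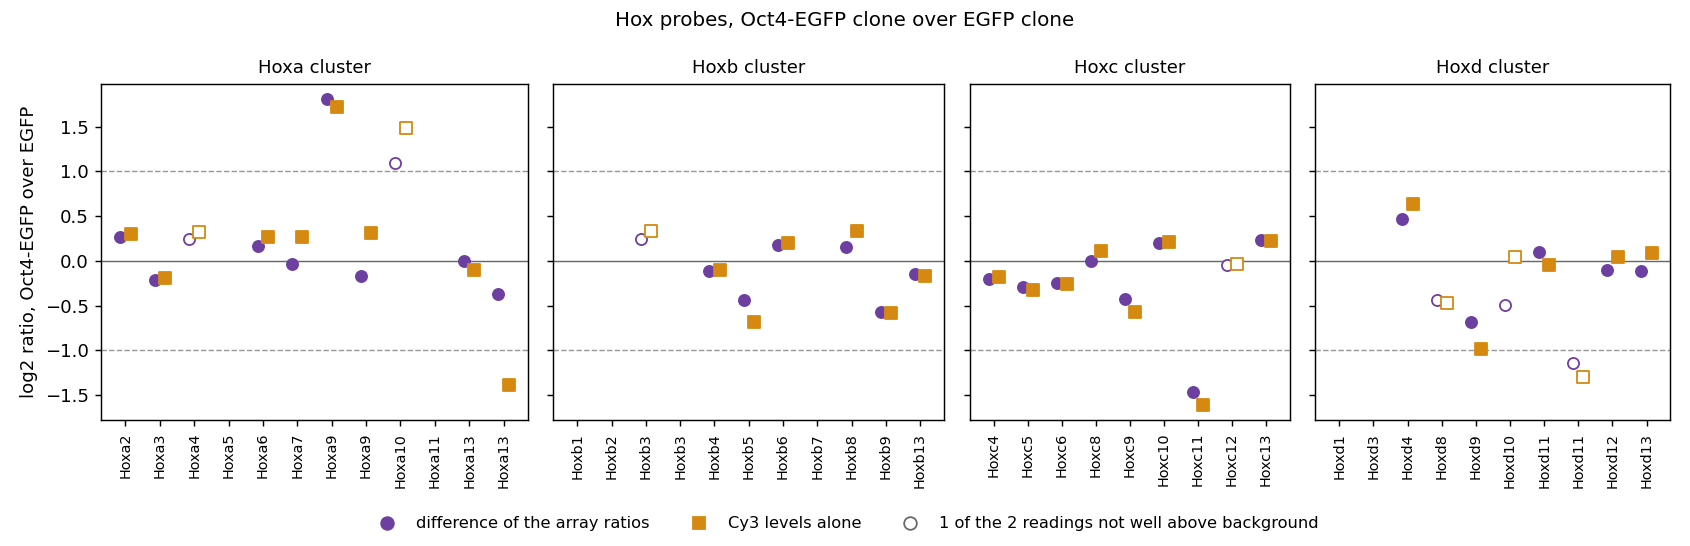
Log2 ratios of the Hox probes reported here for Oct4-EGFP over EGFP in paralogue order, as the difference of the array ratios (circles) and from the Cy3 levels alone (squares); open symbols have 1 of the 2 readings not well above background, and dashed lines mark 2-fold. By both measures, Hoxa10 and 1 Hoxa9 probe lie above the upper line, and Hoxc11 and 1 Hoxd11 probe below the lower one. For Hoxa13, 1 probe gives -0.37 by the first measure and -1.39 by the second.

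All 4 calls by the difference of the array ratios were posterior, as were 18 of the 35 probes compared. By that measure the 9 central probes lay between -0.44 and 0.18. By the software's ratio, the central gene Hoxd8 stood at -1.44. Hoxa2, Hoxa7 and Hoxb13, which set the Nr5a2-EGFP clone apart, had 0.27, -0.03 and -0.15 here. The 2-fold rule thus found no Hox probe that was called between each pair of clones.

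Where a gene had 2 probes, they did not always give the same ratio. Genes with 2 probes included Hoxa9, Hoxa13, Hoxb3 and Hoxd11. The Hoxa9 probe behind the values above lies at chr6:52175595-52175654 on the minus strand. The other Hoxa9 probe, at chr6:52174165-52174224, read 343 in the Nr5a2-EGFP clone and 259 in the Oct4-EGFP clone, a log2 ratio of 0.41, and its indirect ratio was -0.17. Both are assigned to the same transcript, 1430 bases apart in the genome and 385 apart in that transcript, a difference of 1045 bases. The probes thus differed by 1.71 on the log2 scale against Oct4-EGFP and by 1.98 in the indirect comparison.

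For Hoxd11, the called probe lies at chr2:74525014-74525073 on the plus strand and the other at chr2:74522136-74522195, and they carry different accessions. The other probe read 203 in the Nr5a2-EGFP clone and 194.5 in the EGFP clone, a log2 ratio of 0.06, and -0.04 over Oct4-EGFP. The probes differed by 1.69 over EGFP. The second Hoxb3 probe was not well above background in any channel and adds nothing. The Hoxa9 and Hoxd11 calls therefore rest on 1 of 2 probes each.

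Promoters of 22 of the 39 Hox genes, 24 in all, were searched on both strands for TTTATG, the core of the Cdx response element. The search took the 250 bases before and 50 after each start in RefSeq (GRCm38.p6). The other Hox genes had no promoter in the set searched. TTTATG was found in 5 of the 24 promoters of Hox genes (20.8%), and in 11.9% of all 32851 promoters. Those with a match belonged to Hoxa7, Hoxb8, Hoxd3, Hoxd4 and Hoxd11. The windows of the 3 genes that were called are shown, with the match in capitals, as CATAAA where it lies on the other strand.
Hoxa7 (chr6:52218714-52218773, minus strand): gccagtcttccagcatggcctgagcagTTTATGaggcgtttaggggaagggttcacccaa
Hoxa7 (chr6:52218777-52218823, minus strand): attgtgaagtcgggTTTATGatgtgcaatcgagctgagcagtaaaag
Hoxd4 (chr2:74721906-74721965, plus strand): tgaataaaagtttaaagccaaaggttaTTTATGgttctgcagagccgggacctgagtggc
Hoxd11 (chr2:74679444-74679503, plus strand): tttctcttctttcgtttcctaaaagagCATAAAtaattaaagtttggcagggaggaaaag
The matches lie 173 and 236 bases before the start for Hoxa7, 45 for Hoxd4 and 87 for Hoxd11. A further match for Hoxd4 lies past its start, at chr2:74721999-74722004 on the plus strand. Hoxb8 has matches 157 and 143 bases before its start, and it stood at -0.03 in the first comparison and -0.18 in the second. Cdx2 levels differ between the Oct4-EGFP and EGFP clones. In that indirect comparison Hoxa7, Hoxb8 and Hoxd4 stayed within 2-fold, at -0.03, 0.16 and 0.465. The called Hoxd11 probe was lower in the Oct4-EGFP clone, at -1.14, and the other Hoxd11 probe stood at 0.10. Whether Cdx2 acts through these matches was not tested. Hoxd3 was not read in any clone. CAAGGTCA, the extended half-site of Nr5a2, was found in 0 of the 24 Hox promoters and in 1.6% of all promoters. A match is a description of the letters and not a site.

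Inside the spans of the clusters, 17 probes carried other names, 6 in Hoxa, 5 in Hoxb, 1 in Hoxc and 5 in Hoxd. In the Nr5a2-EGFP over EGFP comparison, 0 of 11 read probes were called higher and 1 lower, where 8.56% of all probes were called. In the Nr5a2-EGFP over Oct4-EGFP comparison, 0 of 13 were called higher and 2 lower, where 11.9% of all probes were called. In the indirect one, 1 of 12 was higher and 0 lower, where 12.6% of all probes were called. The lower one over EGFP was 1700109F18Rik, at chr2:74548166-74548225 on the minus strand, next to Hoxd8. It read 77.2 in the Nr5a2-EGFP clone, not well above background, and 158 in the EGFP clone, at least 1.51-fold lower. This noncoding transcript lies between Hoxd4 and Hoxd11, and its probe too entered through the EGFP clone alone.

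ENSMUST00000071583, between Hoxa4 and Hoxa5, was read in the Oct4-EGFP clone alone, at 222. Nr5a2-EGFP read lower than Oct4-EGFP by at least 2.15-fold, and the indirect log2 ratio of Oct4-EGFP over EGFP was 1.18. From the Cy3 levels alone, Oct4-EGFP was higher than EGFP by at least 2.30-fold. A probe for ENSMUST00000114435 overlaps the Hoxa3 probe on the opposite strand and had log2 ratios of -0.985 against EGFP and -1.003 against Oct4-EGFP, beside -0.80 and -0.59 for Hoxa3. Hoxa11os, antisense to Hoxa11 and the only one read of 3 listed cluster noncoding RNAs on the array, had 0.23 and -0.19.

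Genes that act on the clusters were read by the brightest probe of each gene. Over all genes, 8.42% were at least 2-fold apart for Nr5a2-EGFP over EGFP, 3.34% higher and 5.08% lower, and 11.7% for Nr5a2-EGFP over Oct4-EGFP, 4.54% higher and 7.12% lower. In the indirect comparison the shares were 12.4%, 6.50% and 5.87%. Of 9 TALE genes, whose products bind DNA together with Hox proteins, none was called over EGFP, led by Pbx3 at -0.66. Against Oct4-EGFP, Pknox2 was higher at 2.69 and Pbx4 lower at -1.48, and in the indirect comparison they stood at -2.25 and 1.64. The list median was -0.03 over EGFP, -0.18 over Oct4-EGFP and -0.18 in the indirect comparison.

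Of 29 read Polycomb genes, 2 were higher and 0 lower over EGFP, 2 higher and 2 lower over Oct4-EGFP, and 4 higher and 3 lower in the indirect comparison, with medians of 0.13, 0.21 and -0.02. Over EGFP, Cbx2, a chromobox subunit of Polycomb repressive complex 1, was higher at 1.27, and Pcgf2 was higher at 2.31, although its other probe gave 0.16. Over Oct4-EGFP, the histone-binding Rbbp7 was higher at 2.07 and Bmi1 at 1.40, with 1.11 and 0.53 at their other probes. Of 13 genes of the MLL and Trithorax complexes, which oppose Polycomb, 1 was higher and 0 lower over EGFP (Kmt2b at 1.16). Over Oct4-EGFP, 2 were higher and 1 lower. The demethylase gene Kdm6a stood at 1.43 and Kmt2d at 1.47, with 0.42 and 0.61 at the other Kmt2d probes. The indirect comparison had 3 higher and 2 lower, and Kmt2a, which encodes MLL1, stood at 1.54.

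Retinoic acid activates anterior Hox genes. Of 19 read genes of its pathway, 3 were higher and 1 lower over EGFP. The synthesis enzyme gene Aldh1a2 was lower at -1.32, and the receptor gene Rarb was higher at 1.65, with 0.12 at its other probe. Over Oct4-EGFP, 2 of 18 were higher, and Stra8 led them at 2.82. The 4 lower ones were led by Rxra at -1.61, with -0.44 at its other probe. The indirect comparison had 3 higher and 2 lower of 17.

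Of 13 read genes of the posterior growth zone, 0 were higher and 1 lower over EGFP (Msgn1, a gene of presomitic mesoderm, at -2.43), 2 higher and 1 lower over Oct4-EGFP, and 0 higher and 3 lower in the indirect comparison. The Wnt-induced factor genes Sp5 and Sp8 were the higher ones over Oct4-EGFP, at 1.88 and 1.67. Of 7 hindbrain regulators of Hox genes, 0 were higher and 1 lower over EGFP, and 1 was higher and 1 lower in each of the other comparisons. Among these, Pax6 stood at 1.26 over Oct4-EGFP and -1.53 in the indirect comparison, but its other probe gave -1.27 and 1.39. Of 18 genes that flank the clusters, 2 were higher and 0 lower over EGFP, 2 higher and 2 lower over Oct4-EGFP, and 1 higher and 1 lower in the indirect comparison. Calcoco2, listed as a flank of the Hoxb cluster, was higher in the Nr5a2-EGFP clone at 1.65 over EGFP and 2.01 over Oct4-EGFP, with 1.60 and 2.02 at its other probe. Hibadh, a flank of Hoxa, was lower at -1.48 over Oct4-EGFP.

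Of 13 homeobox genes outside the clusters, 10 were read over EGFP, with none called by its brightest probe. That probe gave -0.61 for Nanog, whose other probe gave 1.70. Over Oct4-EGFP, Rhox6 and Rhox9, X-linked genes of the placenta, were the 2 called of 10, at 3.52 and 3.50. In the indirect comparison, 0 of 11 were higher and 3 lower. Of the 4 reference genes, Actb was called, at 1.44 over Oct4-EGFP and -1.77 in the indirect comparison.

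Markers of trophoblast and of ES cells stood far apart between the Nr5a2-EGFP and Oct4-EGFP clones, and their part in the Hox values was not tested. Of 8 read trophoblast markers, 7 were higher and 0 lower over Oct4-EGFP, with a median of 1.91, and 1 was higher and 1 lower over EGFP. Of the ES cell markers, 0 of 8 were higher and 7 lower over Oct4-EGFP, with a median of -2.04, and 0 of 7 higher and 1 lower over EGFP (Esrrb at -2.30). Primitive endoderm had 5 read markers with none called over EGFP and 1 higher over Oct4-EGFP (Dab2 at 1.86). Mesoderm had 6, with 1 lower over EGFP (Foxc2 at -1.48) and 2 lower over Oct4-EGFP. Neural markers had 1 higher and 1 lower of 8 in both comparisons, and fibroblast markers had 1 lower of 6 over EGFP (Acta2 at -1.43) and none over Oct4-EGFP. Over Oct4-EGFP, the higher neural marker was Pax6 at 1.26 and the lower Sox1 at -2.55, with -1.27 and -0.50 at their other probes.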

How the data were processed

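The spot intensity values are scanner output of Agilent Feature Extraction as the authors deposited it, version 10.7.3.1 per the file headers and 9.3.2.1 per the submitters' processing notes, for design 026655 with probe coordinates on mm9. The log10 ratios of Cy5 over Cy3 and the flags for signal well above background, saturation and outliers were made by that software, per the file headers. The deposited value table holds log2 ratios that followed the software's at r = 0.997 with a slope of 0.99 on both arrays, and medians of 0.029 (EGFP array) and 0.048 (Oct4 array). Its centring is unknown.

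Mean signals were corrected with normexp (offset 50) and loess within each array in limma 3.58.1 (R 4.3.3). Control and outlier spots (530 and 523) had no weight in the loess fit and were left out afterwards. Levels were scaled by Aquantile, and spots of a probe were averaged. With 1 array per pair no test was run, and the number of arrays limits precision. RefSeq symbols were matched by accession for 26055 probes, 43 of them among the 44 for Hox. The steps were tested on simulated data. The rule for named genes took the Hox probes, all Cdx and ParaHox genes and the 2 members of each other list with the largest ratios. Members and lists were chosen with earlier results of these data known. Exon and UTR annotation on mm9 was not used here. Counts cover every Hox probe, but the values of some genes are not reported here.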

Additional observations from a re-analysis of the deposited data

How the results depend on the processing

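The counts of Hox probes at least 2-fold apart moved with the background correction, since the offset narrows ratios of dim probes. With the software's processed signals and loess, with the software's log ratio, or with the deposited value table, Nr5a2-EGFP over EGFP gave 11 calls (2 higher, 9 lower) in place of 6 (1 and 5), and Nr5a2-EGFP over Oct4-EGFP gave 9 (4 higher) in place of 5 (1 higher). In the indirect comparison, 4 were then lower in place of 2. Median centring gave 2 higher over Oct4-EGFP and 1 higher in the indirect comparison. With the Nr5a2-EGFP reading of the other array, 8 were called over Oct4-EGFP, 3 of them higher. In the indirect comparison, requiring a signal in every channel, or averaging over the probes of a gene, left 2 calls, 1 higher and 1 lower, the brightest probe of each gene left 1 lower, and the Cy3 levels alone gave 4 lower.

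At a log2 ratio of at least 1.5, 1 call remained over EGFP (0 higher, 1 lower), 0 over Oct4-EGFP (0 higher, 0 lower), 1 in the indirect comparison (1 higher, 0 lower), and 0 of the repeat readings. Of the 15 calls, 12 kept their call under every other alternative that gave a value for the probe itself, other than this stricter size. The rest, among them Hoxd9 over EGFP (-0.858) and Hoxa10 in the indirect comparison (0.839), each lost theirs once. Averaging over the probes of a gene gives no value for a single probe and is not counted here. The Hoxa9 and Hoxd11 calls rest on 1 of 2 probes, and the other probe stayed within 2-fold in the same comparisons. Over all Hox probes, 87 values moved by more than the spread of the repeat readings, 695 did not, and no called value changed sign. No paired analysis was possible because each pair of clones had 1 array. Signal over background limits the Hoxd values, since Hoxd4, Hoxd8, Hoxd10 and the called Hoxd11 probe had no more than bounds over EGFP.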
